A study of Homo sapiens with 46 samples.

Results

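The 8 genes described here are TXNIP, ARRDC4 and the genes around them: the alpha-arrestins ARRDC3, ARRDC2 and ARRDC1, and the transcription factor genes MLXIP, MLXIPL and MLX. They were taken by symbol from a table of 58735 genes, with the condition of a mean of at least 1 CPM, the count divided by the library total and scaled alike for every library, which all 8 met. The group was chosen by the levels of TXNIP and ARRDC4 in the treated libraries against the control libraries of the same batch, so for these genes the values against control are a description and carry no test. The RNA came from HEK293T cells, a human embryonic kidney line of wild-type genotype labelled epithelial-like, in which the synthesis of single mitochondrial proteins had been blocked. Each block used a chimera of the mitochondrial targeting peptide pCox4 and a morpholino against 1 mitochondrial mRNA, added at 2 µM for 48 h with the delivery reagent EndoPorter. The 11 treatments were aimed at ND1, ND2, ND3, ND4L and ND5 of complex I, at CYTB of complex III, at COX1, COX2 and COX3 of complex IV, and at ATP6 and ATP8 of complex V. The pCox4 control received the peptide in the click reaction buffer with no morpholino, so the presence of a morpholino and the block of an mRNA cannot be told apart. There were 4 libraries per condition and 3 for ND2 and COX2, which makes 46 libraries, 42 treated and 4 control.

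MLXIP encodes MondoA and MLXIPL encodes ChREBP, glucose-sensing transcription factors that pair with MLX, respond to glucose 6-phosphate and bind carbohydrate response elements. TXNIP and ARRDC4 are the best known direct targets of this pair in many cell types, and TXNIP is widely used as a readout of MondoA. Their products are alpha-arrestins, adaptor proteins that restrain glucose uptake by taking glucose transporters off the cell surface, and TXNIP also binds thioredoxin.

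The sequences just upstream of TXNIP and ARRDC4 are shown because a shared response element is the known link between these genes. The RefSeq promoter windows (GRCh38.p14, 250 bases before the transcription start to shortly after it) matched all 8 genes with 11 windows. The parts before the deposited gene starts are printed 5′ to 3′ on the strand of the gene. TXNIP lies on the minus strand and the stretch covers chr1:145996601-145996829, and ARRDC4 lies on the plus strand with chr15:97960453-97960697. Capitals mark CCAAT on either strand, the hexamer CACGTG, and a pair of E-box-like hexamers, CACGNG and CACGNG with 5 bases between them, the arrangement of a carbohydrate response element.
TXNIP: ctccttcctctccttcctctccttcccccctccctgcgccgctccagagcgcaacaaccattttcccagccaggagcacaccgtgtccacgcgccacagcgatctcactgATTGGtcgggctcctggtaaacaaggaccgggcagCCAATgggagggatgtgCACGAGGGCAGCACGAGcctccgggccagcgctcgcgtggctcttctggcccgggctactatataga
ARRDC4: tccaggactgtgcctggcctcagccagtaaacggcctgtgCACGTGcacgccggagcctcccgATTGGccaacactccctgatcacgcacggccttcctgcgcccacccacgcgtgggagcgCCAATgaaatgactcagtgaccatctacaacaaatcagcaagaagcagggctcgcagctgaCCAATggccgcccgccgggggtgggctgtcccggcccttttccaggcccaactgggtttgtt

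A match to the paired pattern, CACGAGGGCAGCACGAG, began 67 bases before the deposited TXNIP start. The pattern was found in 16 of 35116 promoter windows (0.0456%). Of the 11 windows it was in 1, upstream of TXNIP, and the ARRDC4 window had 0 matches, so the printed stretches do not show a shared pair. This pattern was written after the TXNIP sequence had been read, so its presence upstream of TXNIP is a description. The stricter pair, CACGTG and CACGTG at the same spacing, was in 1 of the 35116 windows and in none of the 11. CACGTG, which the paired pattern can overlap, occurred in 2 of the 11 windows, those of ARRDC4 and MLX, against 6.34% of all windows, and lay 205 bases before the ARRDC4 start. CCAAT was in 7 of the 11 windows and in 32.0% of all windows, with 2 copies in the TXNIP stretch and 3 in that of ARRDC4. These windows are short, and a match is a run of letters, not a measured site.

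Library totals ranged from 18876395 to 28121898 counts apart from COX3 replicate 4 with 100698084. Replicates 1 and 2 formed batch 1 and replicates 3 and 4 batch 2, which the methods place on different days with different reagents. ND2 and COX2 have 1 library in batch 1. The labels do not say which libraries of a batch came from separate cultures, so p-values measure the spread between these libraries. The epithelial markers KRT8 and KRT18 were at 409.6 and 104.1 CPM on average and of the other genes listed as known from HEK293 cells, NEFL and CDH2 were at 202.1 and 100.4 CPM, PAX2 at 7.29 CPM and NEFM at 1.03 CPM. Of 9 markers of other cell types, 8 were under 1 CPM and COL1A1 was at 25.4 CPM. The targeted mitochondrial mRNA checks the labels only in part, because the chimeras block translation: MT-CO1 fell by 1.33 on the log2 scale in the COX1 libraries, and MT-ND2 was 1.02 higher in the ND2 libraries.

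The deposited table (GRCh38.p12) lists all 8 as protein-coding, with TXNIP (ENSG00000265972) at chr1:145992435-145996600, minus strand, and ARRDC4 (ENSG00000140450) at chr15:97960698-97973838, plus strand. The others lie on chromosomes 5 (ARRDC3), 19 (ARRDC2), 9 (ARRDC1), 12 (MLXIP), 7 (MLXIPL) and 17 (MLX), and no 2 of the 8 share a chromosome. Per length, ARRDC4 was the most abundant of the 8 genes in the control, at 58.1 ± 4.23 TPM (SD, n = 4), where TPM is the count per gene length scaled to the same total in each library. MLX followed with 50.8 ± 2.45 TPM and ARRDC1 with 46 ± 3.54 TPM, which did not differ beyond their spread. TXNIP at 39.9 ± 6.33 TPM and MLXIP at 39.4 ± 1.03 TPM were level within their spread. MLXIPL at 14.6 ± 6.57, ARRDC3 at 13.2 ± 0.604 and ARRDC2 at 13.2 ± 0.447 TPM formed the low end and did not differ beyond their spread. The wide SD of MLXIPL came with the batches, 9.07 TPM in batch 1 and 20.04 TPM in batch 2, and the same holds in part for TXNIP at 34.6 and 45.2 TPM. TXNIP was covered by 390 to 3277 counts per library, and MLXIPL, with the lowest count of the 8 genes in any single library, by 205 to 3036.

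TXNIP was lower than control in each of the 42 treated libraries. Its normalized level in the control was 35.1 and 33.1 CPM in batch 1 and 46.2 and 41.9 CPM in batch 2. The 20 treated libraries of batch 1 ranged from 18.4 to 27.0 CPM with a median of 23.4, and the 22 of batch 2 from 22.9 to 35.4 CPM with a median of 31.3. No treated library overlapped the control libraries of its own batch, although the highest treated libraries of batch 2 reached the level of the batch 1 controls. Relative to the control mean of the same batch, the treated libraries held 52.1% to 80.3% of TXNIP, with a median of 70.4%. All libraries are bulk RNA, so a smaller part of the cells with TXNIP RNA and less of it per cell cannot be told apart.

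ARRDC4 was lower in each of the 42 treated libraries too, by a smaller proportion. The control held 59.2, 62.8, 65.0 and 68.7 CPM in replicates 1 to 4. The treated libraries ranged from 38.2 to 56.6 CPM in batch 1 (median 47.2) and from 42.3 to 56.3 CPM in batch 2 (median 51.6). Here even the highest treated library, an ND1 library with 56.6 CPM, stayed under the lowest control library of either batch. The treated libraries held 62.7% to 92.8% of the control mean of their batch, with a median of 77.2%.

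Among all 20272 genes tested, 4 lay below both control libraries of their batch in all 42 treated libraries (0.0197%), and these were TXNIP, ARRDC4, ZNF75A and INSC. In the other direction 2 genes (0.00987%), CD63 and PDHA1, lay above. ZNF75A, INSC, CD63 and PDHA1 are named because the counts are small, and were picked after their values were seen. The members were chosen for this behaviour, so nothing is read from their place in the count. All 11 treatments share the same 4 control libraries.

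**Figure D1:**
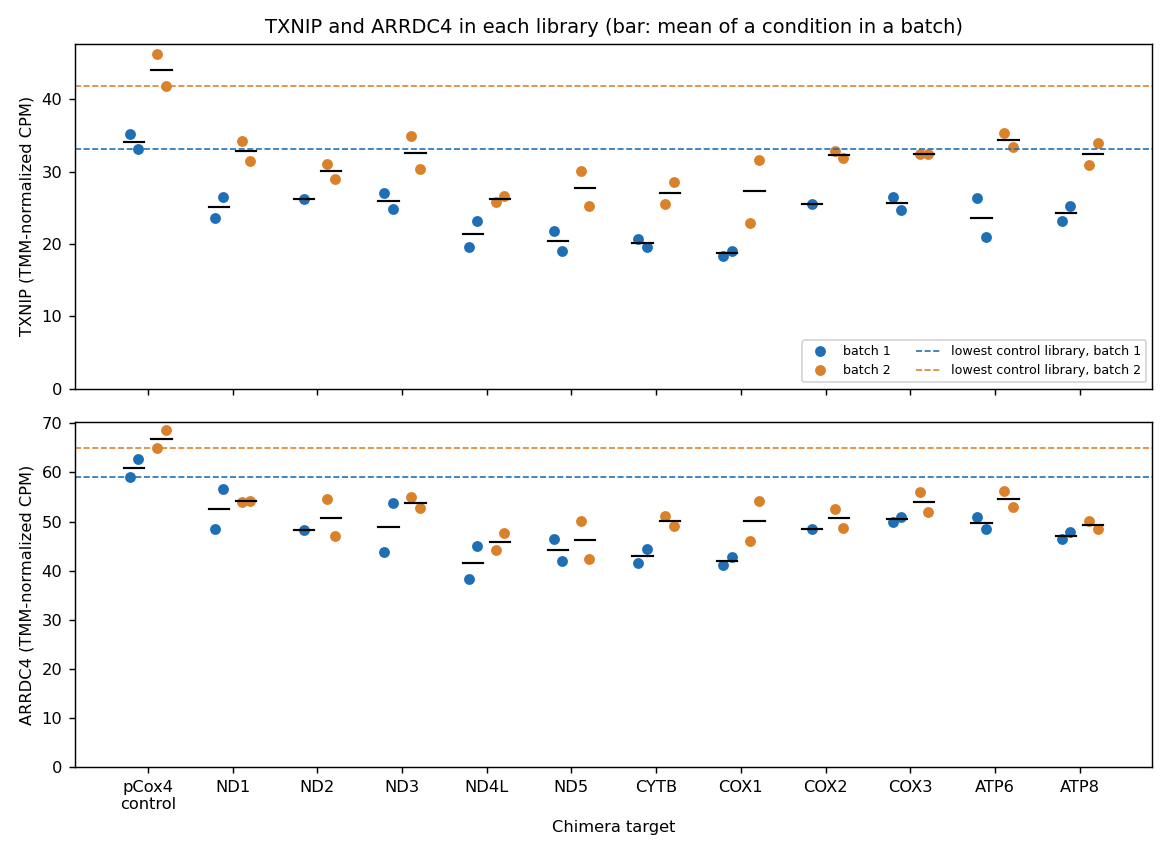
Normalized level (TMM-normalized CPM, linear axis from 0) of TXNIP (top) and ARRDC4 (bottom) in each of the 46 libraries, by condition. Points are libraries coloured by batch, short bars the mean of a condition in a batch, and dashed lines the lowest control library of each batch; all 42 treated points lie under the dashed line of their own colour in both panels.

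By the mean of a treatment, TXNIP was lowest with COX1, CYTB, ND4L and ND5, although single libraries overlapped those of other treatments. In replicates 1 to 4 the COX1 libraries held 18.4, 19.0, 22.9 and 31.6 CPM, and the CYTB libraries 20.7, 19.6, 25.5 and 28.6 CPM. The ND4L libraries held 19.6, 23.2, 25.8 and 26.7 CPM, and the ND5 libraries 21.8, 19.0, 30.1 and 25.2 CPM. COX1 replicate 4 stood well above COX1 replicate 3 of the same batch, at 71.8% against 52.1% of the batch control.

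The other 7 treatments were close together. Among the complex I targets, TXNIP was at 23.6, 26.4, 34.2 and 31.5 CPM with ND1, at 26.2, 31.1 and 29.0 CPM with ND2 (replicates 1, 3 and 4) and at 27.0, 24.9, 34.9 and 30.3 CPM with ND3. For complex IV it was at 25.5, 32.8 and 31.9 CPM with COX2 (replicates 2, 3 and 4) and at 26.5, 24.7, 32.4 and 32.5 CPM with COX3. For complex V it was at 26.3, 21.0, 35.4 and 33.3 CPM with ATP6 and at 23.1, 25.3, 30.9 and 33.9 CPM with ATP8. Within a batch these libraries overlapped, and they held between 65.8% and 80.3% of the control, apart from ATP6 replicate 2 with 61.5%.

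On the log2 scale, with condition and batch fitted together, TXNIP stood at -0.78 in COX1, -0.73 in CYTB, -0.71 in ND4L and -0.70 in ND5 against control. It stood at -0.50 in ND2, -0.47 in ATP8, -0.44 in COX2, ATP6 and ND1, -0.43 in COX3 and -0.42 in ND3, with standard errors of 0.076 to 0.084. TXNIP was called lower (edgeR, adjusted p under 0.05 over all genes) in all 11 treatments, and it was the only gene of the 20272 called lower in all 11 (0.00493%), a count from the contrast that chose it. The share of all genes called lower was 0.00493% in ND3 and ATP6, 0.0148% in ND2, 0.0197% in COX1 and ATP8, 0.0296% in ND4L, 0.0395% in ND1, 0.0839% in ND5, 0.128% in COX3, 0.168% in CYTB and 0.217% in COX2. The mean over the 11 treatments was -0.55 (SE 0.055), and -0.56 and -0.54 in batch 1 and batch 2 fitted alone. Alone, each batch had 2 control libraries and called TXNIP in 4 of the 11 treatments, and a fit with no batch term called it in 0.

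ARRDC4 had the same 4 treatments at its low end. It was at 38.2, 44.98, 44.2 and 47.7 CPM with ND4L and at 46.6, 41.9, 50.1 and 42.3 CPM with ND5. It was at 41.2, 42.9, 45.96 and 54.1 CPM with COX1 and at 41.6, 44.5, 51.2 and 49.2 CPM with CYTB. As for TXNIP, the fourth COX1 library was the highest of its treatment.

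The remaining treatments overlapped each other in ARRDC4. ND1 gave 48.4, 56.6, 54.0 and 54.2 CPM, ND2 48.3, 54.6 and 47.1 CPM, and ND3 43.9, 53.9, 55.01 and 52.8 CPM. COX2 gave 48.5, 52.6 and 48.7 CPM and COX3 49.9, 51.0, 56.1 and 51.9 CPM. ATP6 gave 51.0, 48.6, 56.3 and 53.1 CPM and ATP8 46.4, 47.9, 50.1 and 48.5 CPM. ATP8 was the most even of the treatments with 4 libraries, from 46.4 to 50.1 CPM in both batches.

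Against control, ARRDC4 stood at -0.55 (log2) in ND4L, -0.50 in ND5, -0.48 in COX1, -0.46 in CYTB, -0.41 in ATP8, -0.38 in ND2 and -0.37 in COX2. The differences nearest to 0 were -0.31 in ND3, -0.29 in COX3 and ATP6 and -0.26 in ND1, with standard errors of 0.062 to 0.069. It was called lower in 8 of 11 treatments, again a count from the contrast that chose the genes, from which nothing is read. Over all genes 2 were called lower in at least 8 treatments (0.00987%). The mean of the 11 treatments was -0.39 (SE 0.045), with -0.38 in batch 1 and -0.40 in batch 2. Fitted alone, batch 1 called ARRDC4 in 4 treatments and batch 2 in 2, and the fit with no batch term called it in 4.

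The number of genes called over the whole table did not order the treatments as TXNIP did. COX1, with the lowest TXNIP, called 11 genes of 20272 in all (0.0543%), while COX2 called 95 (0.469%) and CYTB 111 (0.548%). The median log2 difference of all genes lay between -0.0032 and 0.004 in every treatment. TMM scaling centres most genes near 0, so all differences are relative to the bulk of genes and a shift of the whole transcriptome would not be seen.

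Whether the treatments differ from each other does not involve the control libraries. The test of equality of the 11 treatments (edgeR quasi-likelihood F test with Benjamini-Hochberg adjustment over all genes) called 62 genes (0.306%), and TXNIP was among them with F = 6.59 and an adjusted p of 0.001, at rank 35. ARRDC4 just missed the threshold with F = 4.43 and an adjusted p of 0.0518. It passed with the replicate block (adjusted p = 0.0147) and with RLE size factors (0.0443). In batch 1 and batch 2 alone, with mostly 2 libraries a treatment, the adjusted p for TXNIP was 0.168 and 0.897. None of the other 6 genes passed, with adjusted p from 0.447 (MLXIPL) to 0.739 (ARRDC3).

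Single treatments were then compared in pairs. Of the 55 pairs of treatments, TXNIP passed in 0 by edgeR over all genes, with 28 pairs at an unadjusted p under 0.05 and the lowest adjusted p, 0.0636, for COX1 against COX3. ARRDC4 passed in 2 pairs, being higher in ND1 than in ND4L by 0.28 (log2, adjusted p = 0.0372) and than in ND5 by 0.24 (adjusted p = 0.0489). Over all genes and the 55 pairs, 0.0781% of the gene by pair tests passed. The 2 pairs with an ARRDC4 call had larger shares than that. ND1 against ND4L called 45 of 20272 genes and ND1 against ND5 called 212. In the order of TXNIP from COX1 upwards, the widest step between neighbours was from ND5 to ND2, 0.20 (SE 0.085) with an adjusted p of 0.619. The steps among COX1, CYTB, ND4L and ND5, and those from ND2 to ND3, were 0.049 or less, under their standard errors of 0.077 to 0.085. No neighbours in the order of ARRDC4 differed beyond their spread either, with steps of at most 0.061.

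Set against the mean of the other 10 treatments, 0 of 88 tests of the 8 genes passed (edgeR) and 20 had an unadjusted p under 0.05, while the share of all genes that did was 0.774% in ND5, 0.0592% in CYTB, 0.0543% in ND1, COX1 and COX3, and 0.00987% to 0.0296% in the others. TXNIP came nearest in COX1, lower by 0.25 with SE 0.061 and an adjusted p of 0.183 (unadjusted p = 0.000145), and there was 1 call among the 88 tests without COX1 replicate 4 and 3 with DESeq2. The share of all genes called by DESeq2 is not given, so its 3 calls are a description. The treatments were also grouped by OXPHOS complex. The equality of the complex I, III, IV and V means was called for 28 genes (0.138%), and TXNIP had an adjusted p of 0.433 and ARRDC4 of 0.877, with 2 of the 8 genes at an unadjusted p under 0.05. The 4 low treatments belong to complexes I, III and IV, and within complex I ND4L and ND5 were at the low end and ND1, ND2 and ND3 were not.

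The batches share no library, so the order of treatments could be read separately in each. In batch 1 the lowest TXNIP means were those of COX1 (18.7 CPM), CYTB (20.2), ND5 (20.4) and ND4L (21.4), followed by ATP6 with 23.6 CPM. In batch 2 they were ND4L (26.3 CPM), CYTB (27.0), COX1 (27.3) and ND5 (27.7), followed by ND2 with 30.0 CPM. The same 4 treatments were thus lowest in both batches, in a different order. For ARRDC4 they were the lowest 4 of batch 1, from 41.6 CPM in ND4L to 44.2 CPM in ND5, whereas in batch 2 ATP8 with 49.3 CPM came before COX1 and CYTB with 50.0 and 50.2 CPM. The interaction of condition and batch passed in 0 of the 8 genes (adjusted p = 0.975 for TXNIP and 0.986 for ARRDC4, edgeR), with 0 at an unadjusted p under 0.05, and in 1 gene of all (0.00493%).

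**Figure D2:**
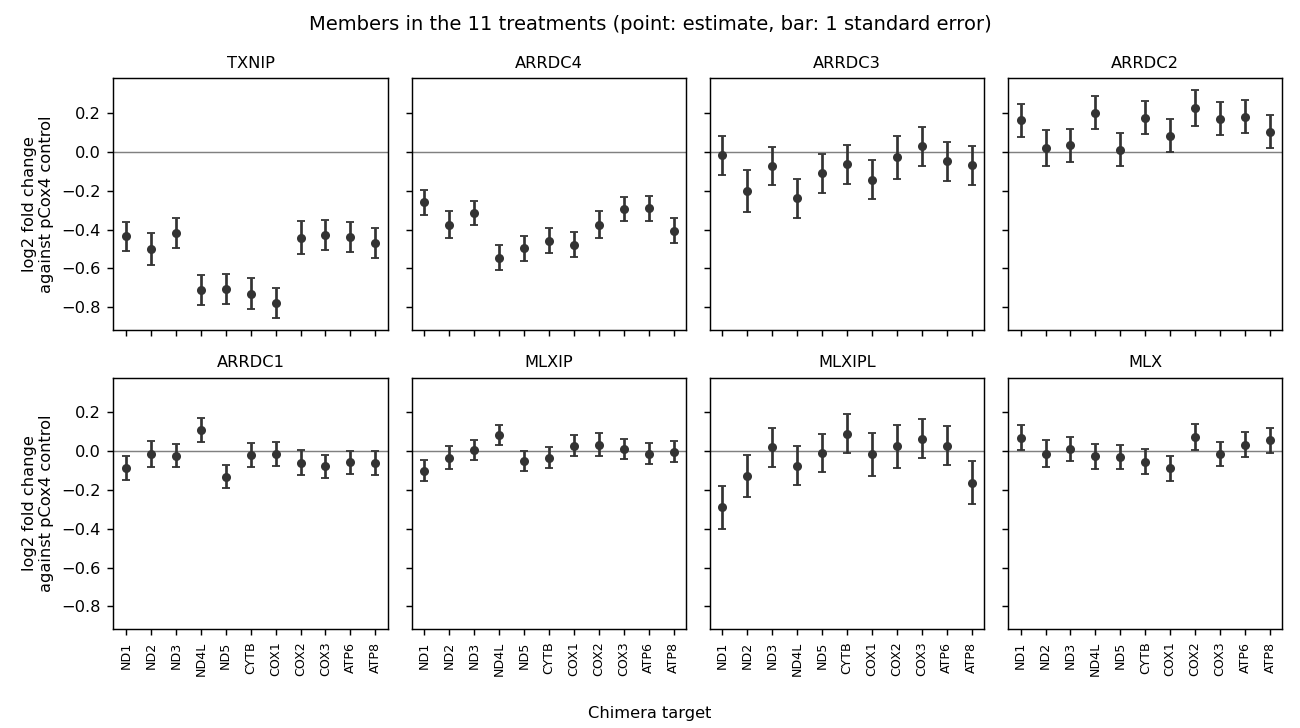
Log2 fold change of each of the 8 genes in each treatment against the pCox4 control, with points for estimates and bars for 1 standard error, on a common axis. TXNIP lies between -0.78 and -0.42 and ARRDC4 between -0.55 and -0.26, and the other 6 genes lie between -0.29 and 0.23.

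In the remaining alpha-arrestins the treated libraries overlapped the control. ARRDC3, which like the others can recruit NEDD4-family ubiquitin ligases and is known for its action on beta-adrenergic receptors and glucose metabolism, was at 17.2, 18.7, 17.1 and 17.6 CPM in the control. Its 42 treated libraries ranged from 13.1 to 21.4 CPM with a median of 16.4, and 31 lay under the control mean of their batch and 11 over it. They overlapped the control on both sides.

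ARRDC2, a less studied family member, was at 17.1, 16.6, 15.8 and 16.7 CPM in the control and at 14.2 to 21.8 CPM in the treated libraries (median 17.9). It leaned the other way, with 32 treated libraries over the control mean of their batch and 10 under it. All 11 of its log2 differences were above 0, from 0.01 in ND5 to 0.23 in COX2, with standard errors of 0.083 to 0.093. The mean was 0.13 (SE 0.064), with 0.17 in batch 1 and 0.06 in batch 2, and in ND5 it was 0.17 in batch 1 and -0.17 in batch 2.

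ARRDC1, known for driving the budding of vesicles from the plasma membrane, was at 51.3, 42.7, 50.0 and 46.1 CPM in the control and at 41.4 to 54.9 CPM in the treated libraries (median 46.1). Its differences ran from -0.13 in ND5 to 0.11 in ND4L. The gene overlaps ARRDC1-AS1 (31.5 CPM) on the opposite strand and ARRDC3 overlaps ARRDC3-AS1 (2.05 CPM). Whether the counting used strand is not given in the sources used here, so reads from such partners cannot be told apart.

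In the transcripts of the 3 factors, treated and control libraries overlapped. MLXIP (MondoA), the more abundant of the glucose sensors here, was at 151.5, 152.8, 144.6 and 143.7 CPM in the control and at 125.5 to 166.2 CPM in the treated libraries (median 147.6). Treated libraries lay on both sides of the control, 23 under and 19 over the mean of their batch. The mean log2 difference was -0.01 with a standard error of 0.039.

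MLX, the shared partner, was at 60.4, 60.6, 59.3 and 53.5 CPM in the control and at 47.6 to 67.3 CPM in the treated libraries (median 58.2), again on both sides. Its mean difference was 0.00 (SE 0.047). The gene overlaps PSMC3IP (22.9 CPM) on the opposite strand. MLXIPL (ChREBP) was at 14.7 and 9.04 CPM in the batch 1 controls and at 26.2 and 25.6 CPM in the batch 2 controls, and its mean difference of -0.04 (SE 0.078) changed sign with the control library left out, from -0.13 without replicate 2 to 0.09 without replicate 1. Across ARRDC3, ARRDC2, ARRDC1, MLXIP, MLXIPL and MLX, 0 of the 66 differences from control were called by edgeR or by DESeq2, against 0.171% of all gene by treatment tests by edgeR. At an unadjusted p under 0.05 there were 8, 3 lower and 5 higher.

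Most of the 8 genes differed between the batches. Batch 2 against batch 1, with condition in the fit, was called for 57.1% of all genes (29.2% higher and 27.9% lower), so a call alone says little, and the sizes are what differ. MLXIPL was higher in batch 2 by 1.24 on the log2 scale (SE 0.044, 2.36-fold, adjusted p = 2.72e-29 by edgeR). Its 22 libraries of batch 1 ranged from 8.46 to 14.7 CPM and its 24 libraries of batch 2 from 18.6 to 30.9 CPM, without overlap. A rise of at least 1 was found in 1.2% of genes, by a call and that size.

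TXNIP was higher in batch 2 by 0.39 (SE 0.033, adjusted p = 7.88e-15), slightly less than the smallest of its treatment differences, and ARRDC4 by 0.12 (SE 0.027, adjusted p = 0.000127). ARRDC2 (-0.16), MLX (-0.09) and MLXIP (-0.07) were lower in batch 2 and ARRDC1 (0.07) higher, all called by edgeR, and ARRDC3 was not called (0.00, adjusted p = 0.965). Day and reagents changed together between the batches and cannot be told apart.

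**Figure D3:**
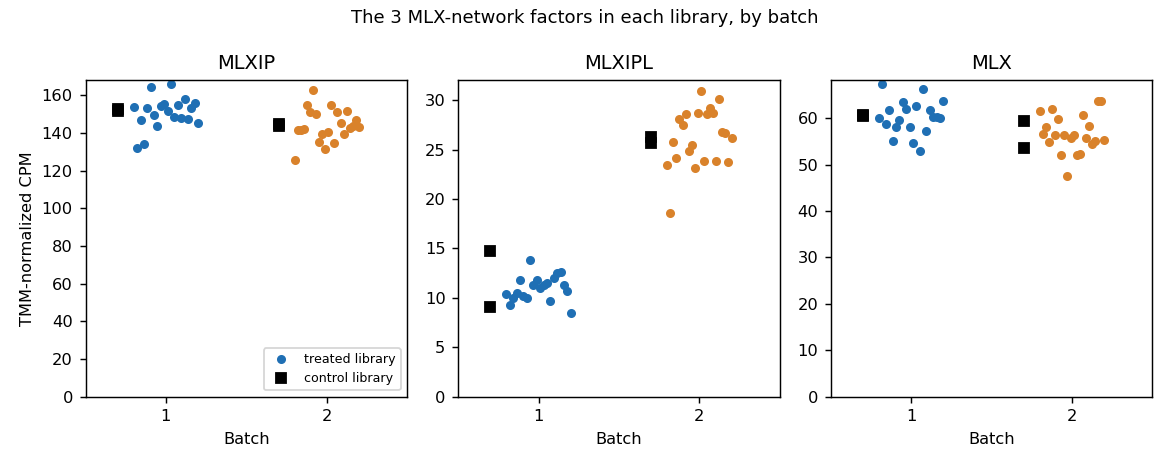
Normalized level (TMM-normalized CPM, axes from 0) of MLXIP, MLXIPL and MLX in each library, by batch; black squares are control libraries and coloured points treated libraries. MLXIPL lies at 8.46 to 14.7 CPM in batch 1 and 18.6 to 30.9 CPM in batch 2, whereas MLXIP and MLX overlap between batches and between control and treated libraries.

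Covariation between the genes was also read where no treatment enters, as the difference in log2 CPM between the 2 libraries of the same condition and batch. With 22 such differences, 28 pairs of genes and 100000 resamples, 4 pairs of genes passed after adjustment. Which passed depended on single conditions: without COX1, ATP8 or ND1 0 of the 4 passed, with adjusted permutation p from 0.0574 to 0.187, 0.0529 to 0.0728 and 0.0718 to 0.0917, and without ATP6 or ND3 2 of them did. TXNIP went against MLXIP (Pearson r = -0.62, adjusted permutation p = 0.0283, Spearman rho = -0.59, adjusted permutation p = 0.0467) and against ARRDC2 (r = -0.58, adjusted permutation p = 0.0307, rho = -0.50, adjusted permutation p = 0.0975). Without the 2 most distant differences r was -0.47 and -0.46. ARRDC2 went with MLXIP (r = 0.64, adjusted permutation p = 0.0283, rho = 0.62, adjusted permutation p = 0.0467) and ARRDC3 against ARRDC1 (r = -0.59, adjusted permutation p = 0.0307, rho = -0.45, adjusted permutation p = 0.116), with r of 0.59 and -0.40 without the 2 most distant. In batch 1 and batch 2 alone, where none of the 4 passed, the 4 values of r were -0.78 and -0.50, -0.68 and -0.53, 0.64 and 0.74, and -0.31 and -0.68.

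TXNIP and ARRDC4 themselves had r = 0.53 and rho = 0.47 in these differences (adjusted permutation p = 0.0574 and 0.103), and r was 0.34 without the 2 most distant. Their differences had the same sign in 13 of 22 cases. Batch 1 alone gave r = 0.60 and batch 2 alone 0.65. The values rest on pairs of libraries, so depth or RNA quality of a library enters both genes, and their part was not tested.

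Across all 46 libraries, centred on each batch, ARRDC4 had the profile most like TXNIP among 10429 genes with a mean of at least 10 CPM, with r = 0.85, and TXNIP was likewise first for ARRDC4. The value was 0.85 in batch 1 and 0.86 in batch 2. These correlations contain the difference between control and treated libraries, by which the genes were chosen, and are a description. Next for TXNIP came ARL6IP1 (0.67), MAT2A (0.65), ZNF207 (0.65) and SESN1 (0.65), and for ARRDC4 came ARL6IP1 (0.66), ZNF207 (0.65), SNHG3 (0.65) and HSF2 (0.63). MAT2A encodes the enzyme that makes S-adenosylmethionine, SESN1 a stress-induced regulator of nutrient signalling and HSF2 a heat shock transcription factor. The distance from r = 0.85 to 0.67 separates ARRDC4 from the next gene. ARRDC3 had r = 0.46 with TXNIP and ranked 295, and MLX (0.32), MLXIPL (0.01), ARRDC1 (-0.16), MLXIP (-0.25) and ARRDC2 (-0.31) followed.

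Other targets of MondoA and ChREBP were not called lower beside TXNIP and ARRDC4. The 25 listed targets were genes of lipogenesis, glycolysis and fructose metabolism and others such as KLF10, RGS16, FGF21 and TKT. Of these 25, 19 passed the filter on low counts and 0 were called lower in any treatment by edgeR or DESeq2. The same 2, HK2 and LDHA, were called higher by both, whereas 1.29% of all genes were called in at least 1 treatment by edgeR. Of the 209 tests of these genes 17 were lower and 25 higher at an unadjusted p under 0.05. The share of all genes called higher was 0.0493% in ND1, 0.178% in COX3, 0.252% in COX2 and 0.38% in CYTB. HK2, the inducible hexokinase that makes glucose 6-phosphate, was at 61.2 ± 4.42 CPM in the control (SD, n = 4) and at 73.2 ± 4.36 CPM in COX3, higher by 0.26 on the log2 scale (SE 0.053, adjusted p = 0.0115), and rose by 0.21 in CYTB (adjusted p = 0.0423). LDHA, which turns pyruvate into lactate, was at 726.5 ± 46.2 CPM in the control and rose by 0.25 in COX2 (SE 0.048, adjusted p = 0.00558), 0.23 in ND1 (adjusted p = 0.0138) and 0.21 in COX3 (adjusted p = 0.0186).

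The median of the mean log2 differences of these 19 genes was 0.017, beside -0.0013 for all genes. The highest was GPD1, a glycerol 3-phosphate enzyme, at 0.36 (SE 0.16), which was not called. LDHA also differed among the 11 treatments (F test, adjusted p = 0.000117), which HK2 did not pass (0.167). LDHA was called higher in ND1, COX2 and COX3, none of which is among the 4 treatments with the lowest TXNIP. HK2 was called higher in CYTB, which is among those 4, and in COX3, which is not. The relation of either gene to TXNIP was not tested.

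Genes of glucose uptake and of glucose 6-phosphate gave 2 called genes of 18 tested, HK2 and HK1, beside 1.29% of all genes called in at least 1 treatment. Of their 198 tests, 29 were higher and 0 lower at an unadjusted p under 0.05, and DESeq2 called the same 2 genes. The share of all genes at the unadjusted threshold is not given, and these tests share the same control libraries, so nothing is read from that direction. HK1, the hexokinase of most tissues, was at 218.6 ± 8.08 CPM in the control (n = 4) and at 249.7 ± 3.32 CPM in COX2 (n = 3), higher by 0.20 (adjusted p = 0.0396). The lowest mean, that of SLC2A10 (-0.53, SE 0.37), belonged to a gene under 1 CPM and was not called. SLC2A1, the glucose transporter GLUT1 that TXNIP acts on at the protein level, had a mean difference of 0.03 (SE 0.042) and was called in 0 treatments. It is named for that role, after its values were seen.

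In the thioredoxin system, 0 of 6 tested genes were called by edgeR, with 12 of 66 tests at an unadjusted p under 0.05, all higher, and DESeq2 called TXNRD2 in 1 treatment. The means ran from -0.05 for MAP3K5 (SE 0.045), a kinase held by thioredoxin, to 0.14 for TXNRD2 (SE 0.047), the mitochondrial thioredoxin reductase. Of all genes, 1.29% were called in at least 1 treatment by edgeR. Among other arrestins and their ubiquitin ligase and sorting partners, 1 of 14 was called by edgeR, and DESeq2 called the same gene higher in 4 tests. For DESeq2 the share of all genes called is not given. ARRB2, beta-arrestin 2, rose by 0.24 in CYTB (SE 0.056, adjusted p = 0.0309), from 76.0 ± 2.27 to 89.6 ± 3.47 CPM (SD, n = 4 each), and its mean over the 11 treatments, 0.18 (SE 0.042), was called as well (adjusted p = 0.0389), as for 0.178% of all genes in that direction. Its relative ARRB1 had the highest mean, 0.20 (SE 0.089), and HECW1, a ubiquitin ligase, the lowest, -0.51 (SE 0.33) at 0.603 CPM, and neither was called.

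The MYC, MAX and MLX network had 0 of 10 genes called by edgeR, from MYCN at -0.16 (SE 0.28) to MYC at 0.06 (SE 0.038), with 12 of 110 tests at an unadjusted p under 0.05 and 1 call, of MYC, by DESeq2. AMPK, the energy sensor that marks TXNIP protein for degradation, and its upstream kinases had 0 of 10 called by edgeR or DESeq2, from CAB39 at -0.08 (SE 0.043) to PRKAG1 at 0.09 (SE 0.039), with 10 of 110 tests at an unadjusted p under 0.05. Of genes that respond to FOXO factors or glucocorticoids, other known inputs to TXNIP, 1 of 20 was called by edgeR. DESeq2 called SESN3 lower in 4 tests and FOXO4 higher in 1. The share of all genes called by DESeq2 is not given, so nothing is read from its calls. Of all genes, 1.29% were called in at least 1 treatment by edgeR. SESN3 fell by 0.28 in COX2 (SE 0.065, adjusted p = 0.0316), from 110.6 ± 6.45 CPM (n = 4) to 91.5 ± 4.24 CPM (n = 3), and its mean over the 11 treatments was -0.18 (SE 0.043, adjusted p = 0.0389), where 0.0839% of all genes were called lower. BCL6 at -0.21 (SE 0.089) and PIK3IP1 at 0.25 (SE 0.12) marked the ends of the list and were not called. The number of calls of a gene in a treatment over all lists, 8 here with HK2 counted in 1 list, was 13 with the replicate block and 22 with DESeq2. It was 5 without control replicate 1, 2 or 3, COX2 replicate 2 or COX3 replicate 1, and 0 without control replicate 4.

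**Figure D4:**
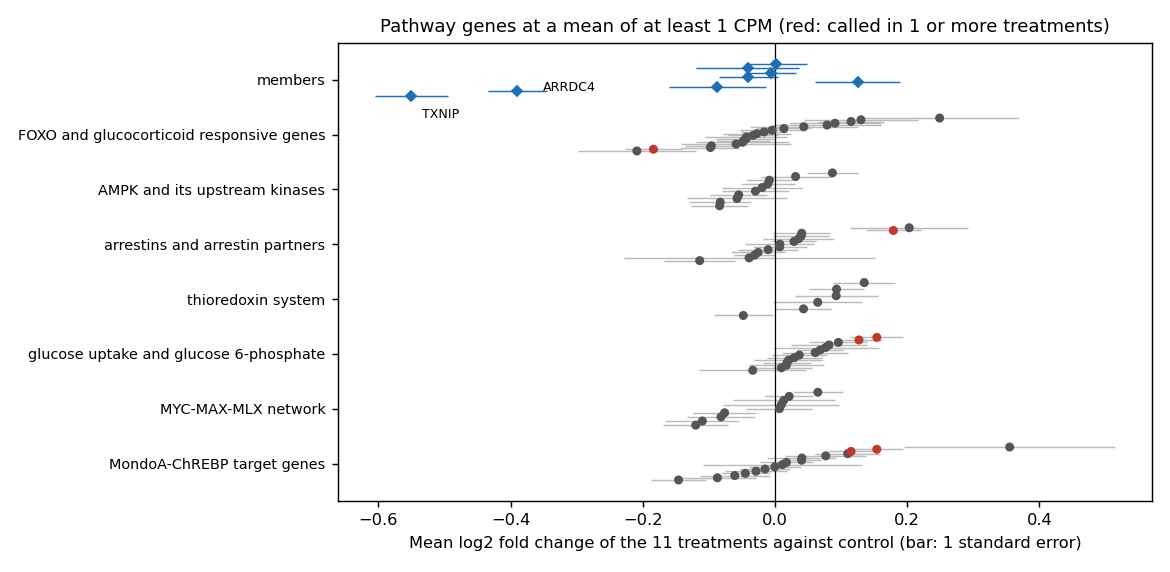
Mean log2 fold change of the 11 treatments against control for genes of 7 pathway lists with a mean of at least 1 CPM and for the 8 members (blue diamonds), with bars of 1 standard error; red points were called in 1 or more treatments. TXNIP at -0.55 and ARRDC4 at -0.39 lie to the left of every listed gene drawn, and the list genes spread on both sides of 0.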

How the data were processed

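Poly(A) RNA-seq was done on 46 libraries of HEK293T cells (11 chimera treatments and the pCox4 control, 48 h). The authors deposited raw counts per gene, with no normalization, for 58735 genes, of which 11381 had no count in any library. The submitters' processing notes name genome build GRCh38.p12, R 4.3.0, DESeq2 1.40.2 and limma 3.56.2, and the aligner, the counter and the use of strand are not given in the sources used here. Reads shared between overlapping or near-identical genes could therefore be split differently by another counter.

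The counts were analysed with edgeR 4.0.16 in R 4.3.3. Genes were kept with a minimum count of 10 (filterByExpr, 20272 genes), libraries were scaled by TMM (factors 0.97 to 1.03), and a quasi-likelihood model of condition and batch was fitted to all 46 libraries, so that all groups share an estimate of the spread. Calls had a Benjamini-Hochberg adjusted p under 0.05 over all genes tested. Counts at an unadjusted p under 0.05 are given without the share of all genes at that threshold, so they are descriptions only. Calls by DESeq2 are likewise given without the share of all genes it called, and the edgeR shares are no background for them. Log2 CPM used a prior count of 2, and TPM used the deposited gene lengths. Equality of the 11 treatments, equality of the 4 complexes, each treatment against the other 10, batch, and the interaction of condition and batch were tested, and permutation tests of correlations ran in Python 3.11.15 with numpy 2.4.6 (two-sided). Differences of libraries within a group were larger than sampling noise in all 66 pairs (chi-square per degree of freedom 3.47 to 23.4), so none was counted as a duplicate. The tests were checked on simulated data, for edgeR with known changes in COX1 alone. That setting differs from a change in all 11 treatments against shared controls, so nothing about TXNIP or ARRDC4 is read from it.

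The 8 genes and the pathway lists were chosen with earlier results of these data known. From each list the text names every gene called in at least 1 treatment (up to 6) and the genes with the highest and lowest mean difference (some are not reported here), besides the 5 genes with profiles most like TXNIP and ARRDC4 among those with a mean of at least 10 CPM. Alternatives were other normalizations, filters, batch terms, DESeq2 1.42.0, each batch alone, and leaving out each library.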

Additional observations from a re-analysis of the deposited data

Results flagged for a closer look

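TXNIP differed among the 11 treatments (edgeR, adjusted p = 0.001), with COX1, CYTB, ND4L and ND5 lowest. ARRDC4 was higher in ND1 than in ND4L by 0.28 and than in ND5 by 0.24 on the log2 scale. Over all genes these 2 pairs called 45 and 212 of 20272.

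In 80 groups of 4 libraries (8 genes in 10 conditions), 2 held a library far from the others. The limit used flags about 1 in 20 by chance where the libraries share a batch. Each group spans both batches, between which most of the 8 genes differed, so that rate does not apply and nothing is read from the count. ARRDC3 was at 13.1 CPM in ND3 replicate 4, while the other libraries of ND3 held 17.8 to 18.4 CPM. MLX was at 62.7 CPM in COX1 replicate 1, while the other COX1 libraries held 52.0 to 52.9 CPM.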

How the results depend on the processing

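Of 146 results under all alternatives, 0 that were called changed sign. Leaving out 1 library at a time, the mean log2 difference ranged from -0.58 to -0.53 for TXNIP, -0.41 to -0.37 for ARRDC4, -0.10 to -0.06 for ARRDC3, 0.10 to 0.16 for ARRDC2, -0.08 to 0.01 for ARRDC1, -0.13 to 0.09 for MLXIPL and -0.03 to 0.02 for MLX, so the uncalled means of the last 3 crossed 0. TXNIP was called lower in 9 to 11 treatments and ARRDC4 in 6 to 10. The adjusted p among the 11 treatments ranged from 1.69e-05 to 0.00391 for TXNIP and from 0.0103 (without COX1 replicate 4) to 0.121 (without ND4L replicate 1) for ARRDC4, calls in the lists from 0 to 10, and calls against the other 10 treatments from 0 to 1.

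With no batch term, TXNIP was called lower in 0 treatments and ARRDC4 in 4, the lists had 0 calls, and the adjusted p of TXNIP among treatments was 1. Batch 1 alone called TXNIP in 4 and ARRDC4 in 4, with 0 list calls and an edgeR adjusted p of 0.168 for TXNIP. Batch 2 alone called them in 4 and 2, with 1 list call and an edgeR adjusted p of 0.897. Adjusted p for ARRDC4 among treatments was 0.0443 with RLE, 0.000585 with no filter, 0.0464 at a mean of at least 1 CPM and 0.000208 with DESeq2. With no filter, the lists had 17 calls, MLXIPL had an edgeR adjusted p of 0.0313 among treatments, calls against the other 10 treatments were 2, and the batch difference of ARRDC1 went from 0.0719 to 0.0661 and was no longer called. DESeq2 gave 22 list calls and 3 against the other 10 treatments, without the share of all genes it called. The causes were not tested.

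With the replicate block, adjusted p among treatments was 0.000904 for TXNIP and 0.0147 for ARRDC4, list calls were 13, and ARRDC4 was lower in 10 treatments. Beyond batch, pairing of the libraries by number was weak and uneven, and the main fit does not use it. Over 111 pairs of conditions, differences between same-numbered libraries correlated with a median r of 0.065 (-0.11 to 0.28), over 0.1 in 32.4%. The correlation of TXNIP and ARRDC4 ranged from 0.44 (without COX1) to 0.64 (without ND3). Genes under 1 CPM such as SLC2A10 limit the lists by depth.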
